A study of Mus musculus with 18 samples.

Results

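Liver levels of 10 genes that signal or respond to growth hormone were compared between lean and obese male mice with and without methotrexate, the folate antagonist that blocks dihydrofolate reductase. The genes are Ghr, Stat5b, Igf1, Igfals, Socs2, Bcl6, Cux2, Hsd3b4, Hsd3b5 and Nat8f5, 10 of the 21153 genes named on the array, and all 18 probes whose transcript accession maps to them were read. They were chosen by their known place in this pathway and selected on the same array values that are given here, so their differences carry no p-value here, and counts of how many passed the threshold used for all genes are a description. All animals were C57BL/6 males fed a 10% low fat diet (LFD) or a 60% high fat diet (HFD) from 6 weeks of age. After 10 weeks on the diet the MTX50 mice received methotrexate at 50 mg/kg into the peritoneum for 5 rounds, and livers were taken 1 week after the fifth. The groups are LFD (4 mice), LFD MTX50 (5), HFD (4) and HFD MTX50 (5), with 1 one-colour array of whole-liver total RNA per mouse, and no litter is named.

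A level is the log2 of the processed spot signal minus the log2 of the 75th percentile of that array, so 0 is the 75th percentile and 1 unit is a 2-fold step. Each gene is read on its brightest probe, ± is the SD over mice for a level and the SE of a linear model for a difference, and levels of different probes are not comparable with each other. The arrays had 83.9 to 90.6% of probes well above background and a 75th percentile of 1202.7 to 2263 intensity units. The hepatocyte markers Alb, Ttr and Apob and the male transcripts Ddx3y and Eif2s3y lay above background on all 18 arrays. P-values measure only the spread between these mice. The 4 LFD arrays share a slide that holds no other group, while LFD MTX50 was hybridised elsewhere, so for every comparison with LFD the slide and the group cannot be told apart. For HFD MTX50 vs HFD, 2 mice of each group share a slide. Levels come from whole liver, in which fewer cells of a type and less RNA per cell cannot be told apart.

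Growth hormone from the pituitary binds the receptor encoded by Ghr on hepatocytes, the kinase JAK2 then phosphorylates STAT5B, and STAT5B enters the nucleus and switches on genes such as Igf1, Igfals, Socs2 and Cish. Male rodents release the hormone in pulses and females more evenly, and this pattern sets the sex bias of many liver genes. In males, pulsed STAT5B activity keeps male-biased genes such as Hsd3b5 and Elovl3 high, while Cux2 and A1bg belong to the female pattern. BCL6, a repressor that binds sites shared with STAT5, is itself more abundant in male liver.

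STAT5 binds the palindrome TTCNNNGAA, which reads the same on both strands. In the 250 bases before annotated starts (RefSeq, GRCm38.p6), 7.02% of 32851 promoters and 8.13% of 27025 genes hold it. Promoter entries were found for 9 of the 10 genes; Socs2 was not matched. Of these 9, the genes Igfals and Bcl6 hold the palindrome at at least 1 of their starts. The 3 promoters that follow are shown because they carry it or, in Hsd3b5, the variant TTCNNNNGAA with 1 more spacer base, which 5.85% of promoters hold. Capitals mark these matches, which are letters found by a search and not measured binding. The Igfals entry is chr17:24877981-24878230 on the plus strand, upstream of the second of 3 starts, with its match 58 bases before the start. The Bcl6 entry is chr16:23981284-23981533 on the minus strand, upstream of the second of 2 starts, with matches 168, 122 and 88 bases before it. The Hsd3b5 entry is chr3:98645535-98645784 on the minus strand, with 1 match.
Igfals: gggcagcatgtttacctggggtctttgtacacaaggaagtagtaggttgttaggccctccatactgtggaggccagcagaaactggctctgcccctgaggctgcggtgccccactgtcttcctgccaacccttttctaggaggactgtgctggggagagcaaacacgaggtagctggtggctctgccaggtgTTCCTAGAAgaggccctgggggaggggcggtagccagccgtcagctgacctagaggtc
Bcl6: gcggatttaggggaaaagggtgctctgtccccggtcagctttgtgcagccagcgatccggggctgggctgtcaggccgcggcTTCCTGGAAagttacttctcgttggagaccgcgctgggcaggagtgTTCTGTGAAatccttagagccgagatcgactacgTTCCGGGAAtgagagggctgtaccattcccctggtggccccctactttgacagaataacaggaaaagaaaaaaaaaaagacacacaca
Hsd3b5: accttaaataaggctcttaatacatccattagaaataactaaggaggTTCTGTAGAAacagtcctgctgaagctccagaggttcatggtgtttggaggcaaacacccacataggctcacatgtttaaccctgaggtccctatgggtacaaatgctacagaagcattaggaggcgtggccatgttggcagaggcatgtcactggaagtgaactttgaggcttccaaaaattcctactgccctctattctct
No match of either motif was found in the windows of Ghr, Stat5b, Igf1, Cux2, Hsd3b4 and Nat8f5.

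In LFD MTX50 vs LFD, Socs2 was 6.41-fold higher, Cux2 was higher from near background, and Nat8f5, Hsd3b4 and Hsd3b5 were 55.9-fold, 29.6-fold and 24.9-fold lower, whereas Igf1 differed by less than 0.2 on the log2 scale. Of the 10 genes, 3 lay past the call threshold as higher (Igfals, Socs2 and Cux2) and 4 as lower (Ghr, Hsd3b4, Hsd3b5 and Nat8f5), that threshold being a Benjamini-Hochberg adjusted p below 0.05 in limma, where 17.6% and 10.5% of 19597 genes were called. The groups did not overlap for 6 of the 10, against 29.1% of all genes. In HFD MTX50 vs HFD, 1 gene was called higher (Socs2, background 4.83%) and 1 lower (Nat8f5, background 6.13%), and 2 did not overlap (Ghr and Nat8f5, background 11.4%). In HFD vs LFD, 0 were called higher (background 18%) and 1 lower (Stat5b, background 10.4%), and 3 did not overlap (Ghr, Stat5b and Hsd3b5, background 40.3%). The difference between the 2 treatment effects was called for 5 of the 10 (background 26.8%). Whether the Hsd3b4 probe counted here reads that gene apart from Hsd3b5 was not tested. Since the genes were selected on these contrasts, nothing is read from the counts. Several of these calls were lost under other settings: obese Socs2 kept its call in 4 of 11 and lean Ghr, lean Igfals and Stat5b in HFD vs LFD in 5, 6 and 7 of 10. The settings that ask for a 2-fold step could not keep them, since each of these differences is below 2-fold. The slide as a random block ended each of these 4 calls and the lean calls of Hsd3b4 and Hsd3b5, and the slide as a fixed block ended the obese call of Nat8f5. The lean calls of Socs2, Cux2 and Nat8f5 held in every such setting that kept their probe. The median absolute log2 difference of the 10 was 2.29 in LFD MTX50 vs LFD beside 0.29 over all genes, 0.44 beside 0.24 in HFD MTX50 vs HFD, and 0.73 beside 0.32 in HFD vs LFD. The selection of the genes bears on these medians too, so nothing is read from them either.

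**Figure D1:**
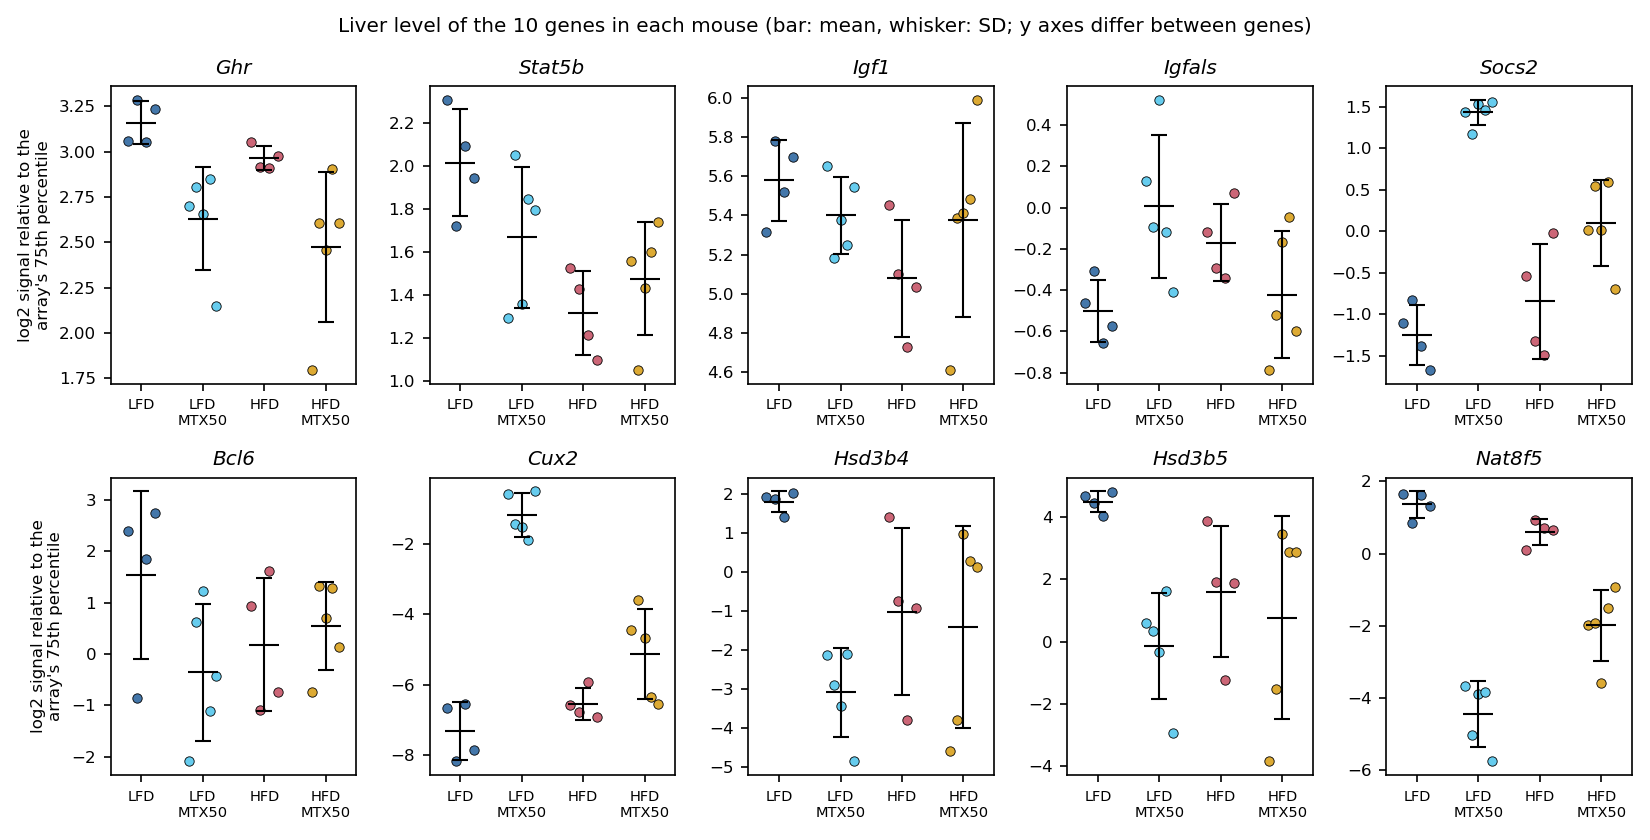
Level of each of the 10 genes in every mouse, as log2 signal relative to the array's 75th percentile, by group (LFD and HFD, 4 mice each; LFD MTX50 and HFD MTX50, 5 each), with bars for means and whiskers for SD. Socs2 and Cux2 of all LFD MTX50 mice lie above all LFD mice, Nat8f5 lies below in both treated groups, and Hsd3b4 and Hsd3b5 spread over several log2 units within HFD and HFD MTX50.

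The receptor gene Ghr was lower in treated livers on both diets. Its level was 3.06, 3.29, 3.06 and 3.24 in the 4 LFD mice and 2.70, 2.81, 2.66, 2.85 and 2.15 in the LFD MTX50 mice. In obese animals it was 3.05, 2.92, 2.91 and 2.98 in HFD and 1.80, 2.60, 2.46, 2.90 and 2.60 in HFD MTX50. Every treated mouse lay below every untreated mouse of its diet, by a narrow margin in HFD MTX50, where the highest treated mouse was at 2.90 and the lowest untreated at 2.91. The differences were -0.53 ± 0.18 in lean and -0.49 ± 0.18 in obese mice, or 1.44-fold and 1.41-fold lower, and the difference between them was 0.04 ± 0.25. A second Ghr probe gave -0.60 ± 0.23 and -0.71 ± 0.23, with overlap between HFD MTX50 and HFD.

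Stat5b, the main growth hormone effector in liver, was lower in untreated obese than in untreated lean mice. It was 2.31, 1.72, 2.09 and 1.94 in LFD and 1.53, 1.43, 1.22 and 1.10 in HFD, so no HFD mouse reached the lowest LFD mouse. HFD vs LFD was -0.70 ± 0.18 (1.62-fold lower) on the brightest probe and -0.50 ± 0.19 on the second probe, where 1 LFD mouse, at -0.47, lay among the HFD mice. Methotrexate gave -0.35 ± 0.18 in lean and 0.16 ± 0.18 in obese mice, each with overlapping groups.

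Igf1, the hormone through which growth hormone acts on growth, had a lower mean in HFD than in LFD and differed less with methotrexate. Lean mice averaged 5.58 ± 0.21 untreated and 5.40 ± 0.20 treated, obese mice 5.08 ± 0.30 untreated and 5.38 ± 0.49 treated, and the groups of each comparison overlapped. The widest spread was in HFD MTX50, from 4.61 in mouse 1 to 5.99 in mouse 5. The differences were -0.18 ± 0.21 for LFD MTX50 vs LFD, 0.30 ± 0.21 for HFD MTX50 vs HFD and -0.50 ± 0.22 for HFD vs LFD. Another bright probe followed it over the 18 arrays (r = 0.97), as did one of middling signal (r = 0.777), which lacks LFD mouse 1, whose spot was an outlier and was dropped. The dimmest probe did not (r = 0.0971) and gave 0.29 ± 0.10 and -0.24 ± 0.10 for the lean and obese treatment comparisons. In HFD vs LFD the other bright probe gave -0.44 ± 0.22, the middling probe -0.54 ± 0.23 and the dimmest 0.04 ± 0.10.

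Igfals encodes the acid-labile subunit, which holds IGF1 with its binding protein in the circulation. Lean mice had -0.46, -0.31, -0.66 and -0.57 without and 0.13, -0.09, 0.52, -0.12 and -0.41 with methotrexate. Only the last treated mouse fell within the untreated range. Obese mice went the other way in their means, with -0.17 ± 0.19 in HFD and -0.42 ± 0.31 in HFD MTX50, and these groups overlapped. The differences were 0.51 ± 0.18 and -0.25 ± 0.18, and within the slide that both obese groups share the latter was -0.52.

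Socs2, a feedback inhibitor that STAT5B induces and that binds the growth hormone receptor, was higher in treated livers, most of all in lean mice. It was -1.10, -0.83, -1.38 and -1.67 in LFD mice and 1.43, 1.18, 1.53, 1.47 and 1.56 in LFD MTX50 mice. No value of the 5 treated mice came near the untreated range, and their SD was 0.15. The difference was 2.68 ± 0.29, or 6.41-fold higher. Obese mice had -0.54, -1.32, -1.50 and -0.02 without and 0.01, 0.55, 0.02, 0.59 and -0.69 with the drug. There 4 treated mice lay above the highest untreated mouse, mice 1 and 3 only barely, and mouse 5 lay among the untreated. The difference was 0.94 ± 0.29 (1.92-fold higher), and 1.04 within the shared slide. The other Socs2 probes, which correlated with the brightest at 0.995 and 0.97, gave 2.74 ± 0.31 and 2.29 ± 0.26 in lean mice and 0.71 ± 0.31 and 0.36 ± 0.26 in obese mice. On the brightest probes the group mean of Ghr was thus lower and that of Socs2 higher in treated livers of both diets. Mouse by mouse they did not oppose each other: with group means subtracted, r was 0.137.

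**Figure D2:**
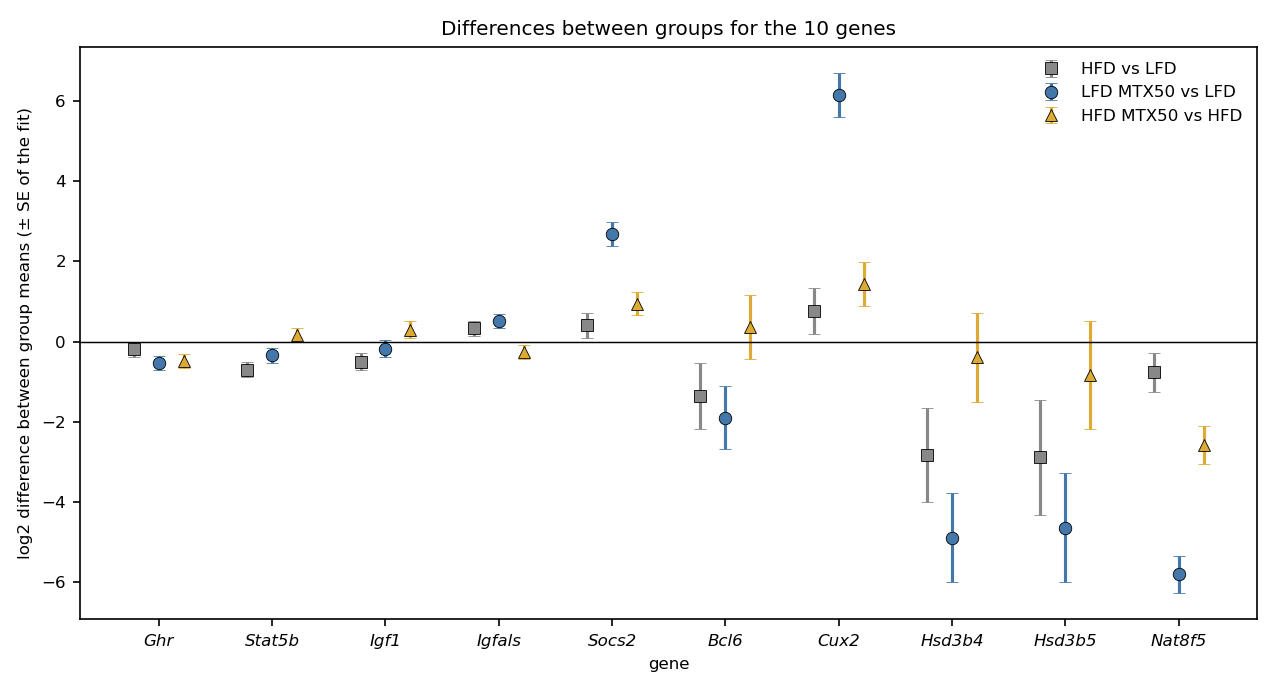
Log2 difference between group means with the SE of the model for each of the 10 genes in HFD vs LFD (squares), LFD MTX50 vs LFD (circles) and HFD MTX50 vs HFD (triangles). Cux2 reaches 6.15 and Nat8f5 -5.80 in LFD MTX50 vs LFD, while Ghr has nearly the same difference on both diets.

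Bcl6, the repressor named above, varied widely within every group. Lean mice had 2.41, -0.85, 1.85 and 2.75 untreated and -2.09, 0.63, 1.22, -1.11 and -0.44 treated. Obese mice had 0.94, -1.08, 1.61 and -0.74 untreated and -0.73, 1.33, 0.70, 1.28 and 0.15 treated. All groups overlapped, and the SD over mice was 0.86 to 1.63. Treated minus untreated was -1.90 ± 0.79 in lean and 0.36 ± 0.79 in obese mice.

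Cux2, a repressor that normally marks the female pattern in mouse liver, was at or near background in lean controls. In LFD it was above background in 1 of 4 mice, with -6.66, -8.20, -6.57 and -7.86. In LFD MTX50 it was above background in all 5, with -0.55, -1.41, -1.52, -1.89 and -0.48. The difference was 6.15 ± 0.54, or 71.2-fold higher, and was 3.28 when the background was modelled with an added offset, where Nat8f5 was at -4.68, so the size of the Cux2 difference, and its place as the largest of the 10, depend on the background. HFD mice had -6.58, -6.78, -5.92 and -6.94, with 2 of 4 above background. HFD MTX50 mice had -4.45, -3.57, -4.67, -6.37 and -6.56, so mice 1, 2 and 3 lay above all HFD mice and mice 4 and 5 within their range. The obese difference was 1.43 ± 0.54 and was 2.41 within the shared slide, which holds mice 1 and 2.

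Erythroid RNA was among the summed levels that separated the same obese mice. The summed level of 4 erythroid markers (Hba-a1, Hbb-b1, Alas2 and Slc4a1) was 4.05 to 4.57 in LFD, 0.04 to 0.66 in LFD MTX50 and 3.46 to 4.59 in HFD. In HFD MTX50 it was 0.45, 0.89 and 1.33 in mice 1, 2 and 3 and 4.55 and 5.88 in mice 4 and 5. The summed level of 10 fasting response genes also put mice 1, 2 and 3 (7.39, 8.31 and 7.59) above mice 4 and 5 (7.31 and 6.81). That of neutrophil markers, which follows their brightest gene Elane and not the list as a whole, was lower in mice 1, 2 and 3. That of acute phase genes did not separate them. The part of any of these in the Cux2 result was not tested.

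**Figure D3:**
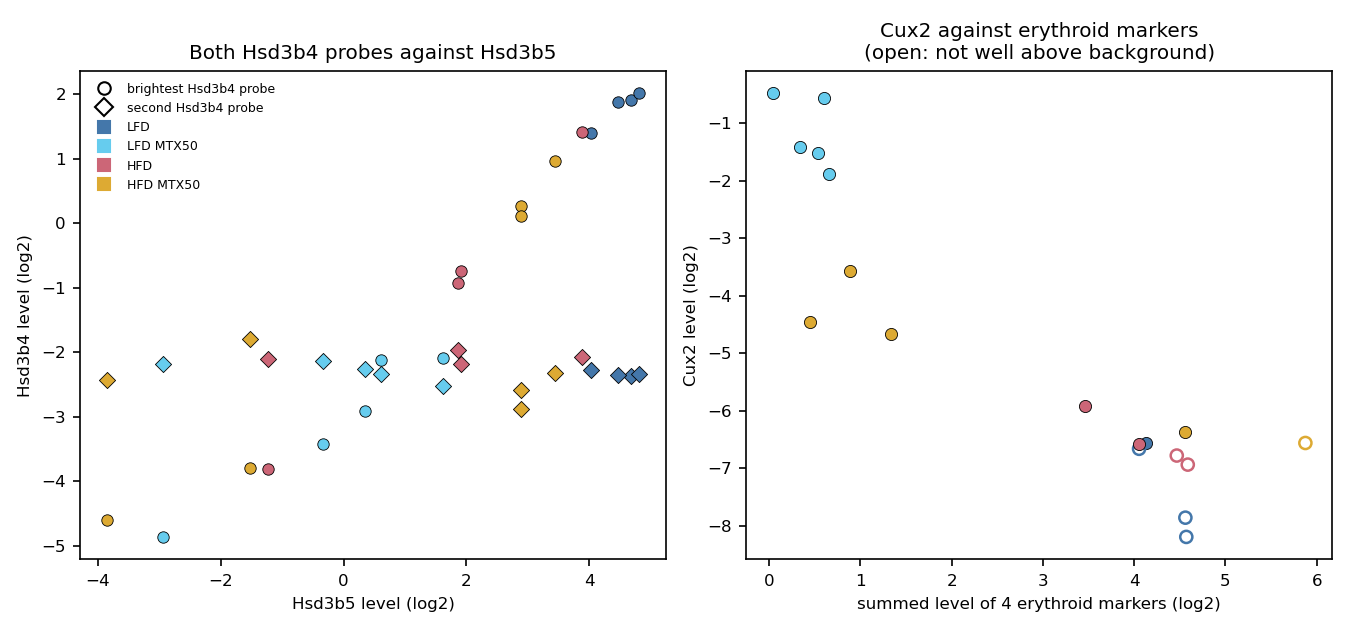
Left, level of the brightest (circles) and second (diamonds) Hsd3b4 probe against Hsd3b5 in 18 livers; right, Cux2 against the summed level of 4 erythroid markers, open where Cux2 was not well above background. The brightest Hsd3b4 probe rises with Hsd3b5 and the second stays near -2; Cux2 is highest in the 5 LFD MTX50 livers, followed by 3 HFD MTX50 livers.

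Hsd3b5, a male-specific steroid dehydrogenase of the 3-beta family that acts as a ketosteroid reductase in liver, was high and even in lean controls and scattered in every other group. The LFD mice had 4.68, 4.46, 4.03 and 4.82 and the LFD MTX50 mice 0.60, 0.35, -0.34, 1.62 and -2.94. The lean groups did not overlap, and treated mice were lower by 4.64 ± 1.35 log2 units, a 24.9-fold difference. On the high fat diet the untreated mice had 3.88, 1.91, -1.23 and 1.87 and the treated mice -3.85, -1.52, 3.45, 2.89 and 2.89. Obese mice without drug already lay below every lean control, by a mean of 2.89 ± 1.43 log2 units. Treated obese mice fell into a low pair (mice 1 and 2) and 3 mice that exceeded most HFD mice, so the mean difference of -0.84 ± 1.35 describes no single animal. Both low mice lie on the slide shared with HFD mice 3 and 4, where the difference was -3.00, and on the remaining slides it was 0.18.

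Hsd3b4, a relative of Hsd3b5, was read by a pair of probes that disagree. On the brightest probe LFD mice had 1.92, 1.88, 1.40 and 2.02, LFD MTX50 mice -2.12, -2.91, -3.43, -2.09 and -4.86, while obese mice had 1.41, -0.75, -3.80 and -0.93 without methotrexate and -4.60, -3.80, 0.96, 0.28 and 0.12 with it. Treated lean mice were 29.6-fold lower (-4.89 ± 1.11). On the other probe the LFD and LFD MTX50 means were -2.33 ± 0.04 and -2.28 ± 0.15, a difference of 0.05 ± 0.15. The brightest probe followed Hsd3b5 almost exactly over the 18 arrays (r = 0.977) and the other did not (r = -0.285). The transcripts of this family are similar, and whether the bright probe reads Hsd3b4 apart from Hsd3b5 was not tested.

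Nat8f5, a member of the N-acetyltransferase 8 family, was lower with methotrexate in every mouse of both diets. Lean controls had 1.66, 0.86, 1.62 and 1.33 and treated lean mice -3.66, -5.02, -3.90, -3.85 and -5.76. The difference was -5.80 ± 0.47, or 55.9-fold lower. Obese mice had 0.10, 0.92, 0.71 and 0.65 without and -1.97, -1.93, -3.60, -1.51 and -0.93 with the drug, a difference of -2.58 ± 0.47 (6.00-fold lower). It was -2.63 within the shared slide and -2.53 on the others. The effect in obese mice was smaller than in lean mice by 3.22 ± 0.66 log2 units, and the lowest HFD MTX50 mouse, at -3.60, lay just above the highest LFD MTX50 mouse, at -3.66.

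The list of relatives and the lists below were chosen with earlier results of these data known. Their counts are therefore a description, and their adjusted p-values do not allow for that choice. Of 10 Hsd3b and Nat8 relatives of these genes tested, 6 fell, 0 rose and 4 did not pass in LFD MTX50 vs LFD. Over all genes, 10.5% fell and 17.6% rose there. The list median was -0.93, beside 0.10 over all genes. Hsd3b2 fell by 1.63 ± 0.43 (limma adjusted p = 0.0129), Hsd3b3 by 1.28 ± 0.39 (adjusted p = 0.0232) and Hsd3b6 by 1.34 ± 0.41 (adjusted p = 0.0246). Hsd3b7, an enzyme of bile acid synthesis, fell by 0.58 ± 0.20 (adjusted p = 0.0417). Nat8 fell by 1.17 ± 0.18 (adjusted p = 0.00121). Nat8f6 was not above background in any treated mouse and was at least 3.62-fold lower in LFD MTX50 than in LFD (adjusted p = 0.000143). Hsd3b1, Nat8f1, Nat8f2 and Nat8f4 did not pass, with differences of 0.13, -0.69, -0.38 and -0.06. In HFD MTX50 vs HFD only Nat8f6 passed, as lower (adjusted p = 0.0140), beside 6.13% of all genes. In HFD vs LFD Hsd3b1 was higher and Nat8 and Nat8f6 were lower, beside 18% and 10.4% of all genes. This Hsd3b1 call was lost in 5 of 10 other settings (adjusted p up to 0.586) and this Nat8 call in 7 of 10 (0.221). Some of these settings ask for a 2-fold step that neither difference reaches. Leaving out 1 mouse ended the Hsd3b1 call in 1 of 18 fits and the Nat8 call in 8 (adjusted p up to 0.0537 and 0.105). The Nat8f6 diet call held throughout. The obese Nat8f6 call was lost without HFD mouse 3 or 4 (adjusted p up to 0.0612), and the difference was 0.0092 when the background was modelled with an offset. In lean mice the Hsd3b3, Hsd3b6 and Hsd3b7 calls were lost in 3, 2 and 8 of the 18 fits that left out 1 mouse, with adjusted p up to 0.0573, 0.0622 and 0.0964. When slide was a random block, Hsd3b2 (adjusted p = 0.0839), Hsd3b3 (0.108), Hsd3b6 (0.108) and Hsd3b7 (0.144) lost their calls and Nat8 and Nat8f6 kept theirs. Hsd3b7 kept its call in 3 of the 10 settings, some of which ask for a 2-fold step that its difference does not reach.

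The lists of sex-biased genes were likewise chosen with earlier results of these data known. Of 19 male-biased liver genes tested, 11 fell, 0 rose and 8 did not pass in LFD MTX50 vs LFD. Over all genes, 10.5% fell and 17.6% rose there. The list median was -1.13, beside 0.10 over all genes. A fit that blocked on slide at random called 6 of the 19. Elovl3, an elongase of very long chain fatty acids, fell by 6.50 ± 0.61 (adjusted p = 4.228e-05). The fatty acid hydroxylases Cyp4a12a and Cyp4a12b fell by 4.13 ± 0.41 (adjusted p = 6.621e-05) and 3.66 ± 0.32 (adjusted p = 3.289e-05). Nudt7, a peroxisomal coenzyme A hydrolase, fell by 2.88 ± 0.58, the organic anion transporter Slco1a1 by 2.29 ± 0.56 and Gstp1 by 2.06 ± 0.32. In HFD MTX50 vs HFD, 2 fell (Cyp4a12a by 1.74 ± 0.41 and Cyp4a12b by 1.40 ± 0.32), C8b rose, and the median was -0.29. Of all genes, 6.13% fell and 4.83% rose there. Elovl3 had -1.83 ± 0.61 in these mice, without overlap, but did not pass (limma adjusted p = 0.0603). It was called in 4 of 11 other settings. The test of the difference between the diets passed for 6 of the 19, which is near the 26.8% of all genes. Elovl3 was among them (4.67 ± 0.86, adjusted p = 0.00519), and for each of the 6 the effect was more negative in lean mice. Without HFD mouse 3 or HFD mouse 4 none of the 3 obese calls remained, with adjusted p up to 0.0772 for Cyp4a12a and 0.0704 for Cyp4a12b. In HFD vs LFD, 5 were lower and 1 was higher, beside 10.4% and 18% of all genes.

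Of 22 female-biased genes tested, 9 rose, 0 fell and 13 did not pass in LFD MTX50 vs LFD, with a median of 0.68. Over all genes, 17.6% rose and 10.5% fell there. Blocking on slide at random left 1 call. Fmo2, a flavin monooxygenase, rose by 3.28 ± 0.57 (adjusted p = 0.00199), Atp6v0d2 by 2.12 ± 0.36 (adjusted p = 0.00173) and Cyp2b9 by 2.07 ± 0.63 (adjusted p = 0.0240). The sulfotransferase gene Sult3a1 was not above background in any LFD mouse, was above it in 4 of 5 LFD MTX50 mice, and was at least 6.12-fold higher there (adjusted p = 0.0109). In obese mice 0 rose with the drug, beside 4.83% of all genes. The effect differed between diets for 7 of the 22, near the 26.8% of all genes, in each case more positive in lean mice. In HFD vs LFD, 6 were higher and 0 lower, beside 18% and 10.4% of all genes. Among the 6, Cyp2b9 was higher by 2.49 ± 0.66 (adjusted p = 0.0141) and Cyp2b10 by 2.24 ± 0.73 (adjusted p = 0.0322). Hao2 was higher by 2.43 ± 0.65 (adjusted p = 0.0140) but was above background in 1 of 4 LFD mice, so its size there is uncertain. In the diet comparison that block took the calls from 6 to 0 for both lists, and with the slide as a fixed block no gene of either list was called in HFD MTX50 vs HFD. Without HFD mouse 3 the female-biased calls in HFD vs LFD fell to 1, and those of Cyp2b9 (adjusted p = 0.0597) and Hao2 (0.0573) were lost; the Cyp2b10 call was lost in 6 of the 18 fits that each left out 1 mouse, with adjusted p up to 0.109. The lean Cyp2b9 call was lost without LFD mouse 2 or LFD MTX50 mouse 2 or 5 (adjusted p up to 0.0576).

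**Figure D4:**
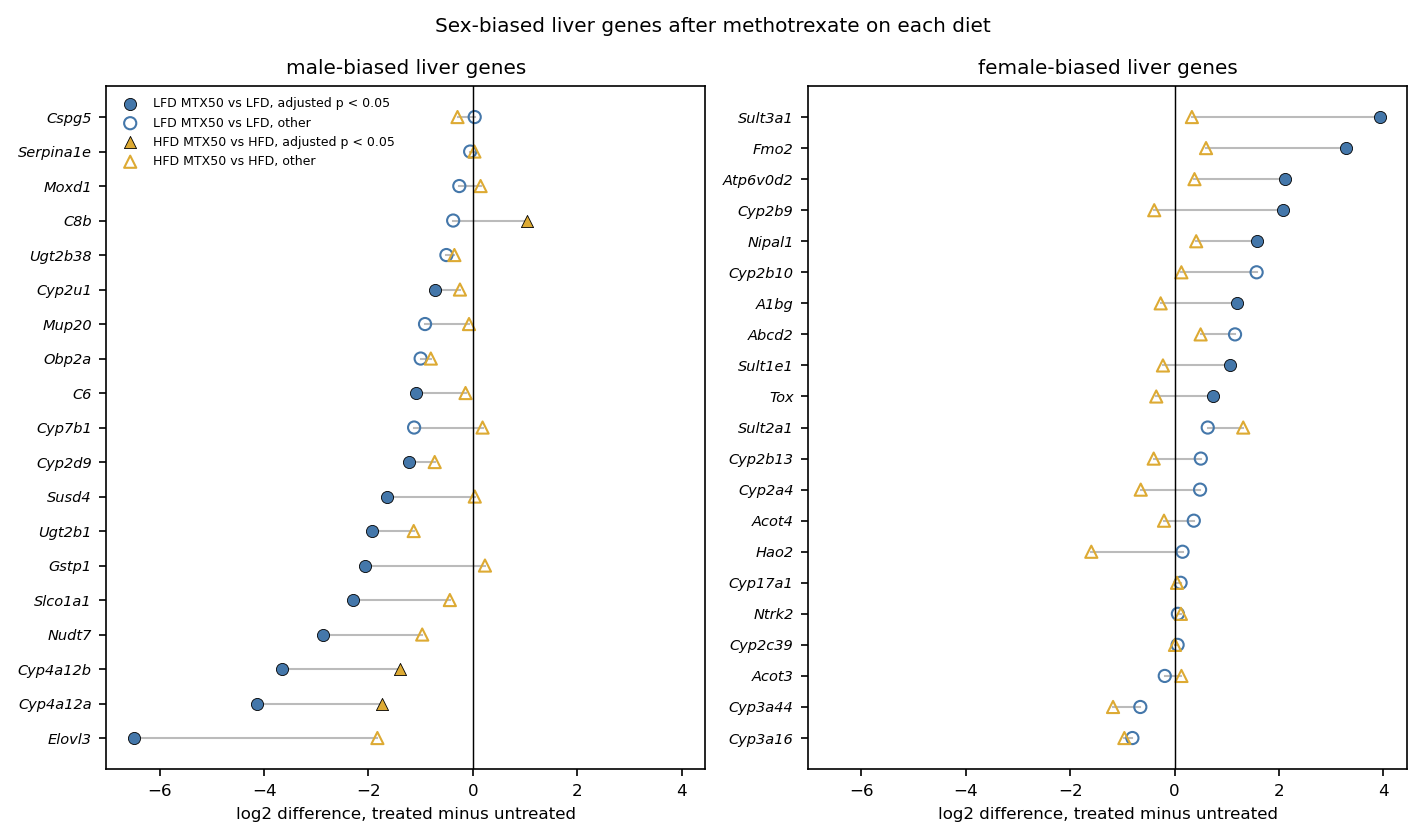
Log2 difference, treated minus untreated, of 19 male-biased and 21 of the 22 female-biased liver genes in lean (circles) and obese (triangles) mice, filled where the adjusted p was below 0.05. In lean mice 11 male-biased genes are filled left of 0 and 8 female-biased genes right of 0; in obese mice 3 male-biased and 0 female-biased genes are filled.

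Of 32 other signalling genes of the axis tested, 7 rose and 5 fell in LFD MTX50 vs LFD, beside 17.6% and 10.5% of all genes. In HFD MTX50 vs HFD 5 rose and 3 fell (all genes 4.83% and 6.13%), and in HFD vs LFD 3 were higher and 5 lower (all genes 18% and 10.4%). Socs3, an inhibitor induced mostly by STAT3, rose with the drug on both diets, by 1.42 ± 0.34 in lean (adjusted p = 0.00886) and 1.84 ± 0.34 in obese mice (adjusted p = 0.00854). Cish, another STAT5 target, rose by 2.33 ± 0.79 in lean mice (adjusted p = 0.0359), with overlap, and had 1.42 ± 0.79 in obese mice (adjusted p = 0.224). The prolactin receptor gene Prlr rose by 1.33 ± 0.25 in lean mice (adjusted p = 0.00307) and had 0.79 ± 0.25 in obese mice (adjusted p = 0.0522). Stat5a fell by 0.99 ± 0.22 in lean mice (adjusted p = 0.00585) and had 0.11 ± 0.22 in obese mice. The difference between the diets passed for Stat5a (1.10 ± 0.31, adjusted p = 0.0182) and for Jak2 (1.08 ± 0.29, adjusted p = 0.0161), while Jak2 passed on neither diet alone. The Cish call was lost in 7 of the 18 fits that left out 1 mouse (adjusted p up to 0.1095), and fitting the slide as a random block left 2 lean treatment calls in this list in place of 12.

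The IGF binding proteins differed from each other. Igfbp1, which binds IGF1 and is induced in fasting, rose by 2.77 ± 0.82 in lean treated mice (adjusted p = 0.0212) and had 1.30 ± 0.82 in obese mice (adjusted p = 0.288). Igfbp2 was lower on the high fat diet by 2.14 ± 0.45 (adjusted p = 0.00538) and rose with methotrexate in obese mice by 1.69 ± 0.42 (adjusted p = 0.0227), from a mean of 2.37 to 4.06, against 4.51 in LFD. In lean mice Igfbp2 had -0.69 ± 0.42 (adjusted p = 0.218). Igfbp3 passed in no comparison. Htra1, a protease that cleaves IGF binding proteins, fell in obese treated mice by 1.18 ± 0.29 (adjusted p = 0.0221). The obese calls of Igfbp2 and Htra1 were lost without HFD mouse 3 or 4 (adjusted p up to 0.0983 and 0.0956), and the lean Igfbp1 call without LFD mouse 2 (0.0702). Within the slide that both obese groups share, the Igfbp2 and Htra1 differences were 2.83 and -1.79, and on the other slides 0.72 and -0.62. With the slide as a fixed block neither was called in obese mice.

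Of 15 transcription factors that act with STAT5 in liver, 4 rose and 2 fell in LFD MTX50 vs LFD, beside 17.6% and 10.5% of all genes. When slide was a random block only Trim24 of these 6 was called, and the adjusted p was 0.143 for Cebpb, 0.0792 for Esr1, 0.115 for Foxa1 and 0.248 for Foxa3. The lean Zhx2 call was lost in 4 of 9 settings, with adjusted p up to 0.632. Some of these settings ask for a 2-fold step, which the Zhx2 difference does not reach. Trim24 rose by 1.69 ± 0.22 (adjusted p = 0.000489), Cebpb by 1.04 ± 0.31 (adjusted p = 0.0208), Esr1 by 0.96 ± 0.22 (adjusted p = 0.00707) and Foxa3 by 0.70 ± 0.25 (adjusted p = 0.0446). Foxa1, a pioneer factor at sex-biased genes, fell by 0.93 ± 0.25 (adjusted p = 0.0146) and the repressor Zhx2 by 0.69 ± 0.21 (adjusted p = 0.0239). In obese mice 2 rose with the drug, Trim24 by 0.73 ± 0.22 (adjusted p = 0.0451) and Hnf4a, beside 4.83% of all genes. In HFD vs LFD, Hnf4a and Zhx2 were lower, beside 10.4% of all genes. The obese Trim24 call was lost in 13 of the 18 fits that left out 1 mouse (adjusted p up to 0.133), the lean Foxa3 call in 10 (0.131), the Cebpb call without LFD mouse 4 (0.0688), and the lean Zhx2 call without LFD mouse 4 or LFD MTX50 mouse 5 (0.0807).

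Genes whose levels varied most like a given member within groups were sought among genes above background on all 18 arrays, with each group's mean subtracted. For Hsd3b5 these were Hsd3b4 (r = 0.979 on its brightest probe, not tested for reading it apart from Hsd3b5), Cyp4f15 (0.943) and Sult2a8 (0.915). For Cux2, itself above background on 12 of the 18 arrays, they were C130026I21Rik (0.93), Unc5c (0.901) and Cacnb4 (0.897), at 0.468, 0.386 and 0.512 without subtracting group means. The nearest to Socs2 were Kcnk10 (0.774), Pax8 (0.76) and 1700054K19Rik (0.738), from 17525 genes searched. Without subtracting group means they were at 0.635, -0.499 and -0.128, so the last pair did not follow Socs2 across groups. All genes named here are the highest of such a search, and how high r would reach among as many unrelated genes was not tested.

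Other RNAs moved with the drug as well. Of 20 acute phase genes, 10 rose and 0 fell in each treatment comparison, where 17.6% (lean) and 4.83% (obese) of all genes rose. Their summed level spanned 9.54 to 9.68 in untreated and 10.22 to 10.66 in treated lean mice, and 9.34 to 9.56 and 9.69 to 11.40 in obese mice. Of 4 erythroid markers, 3 fell in lean treated mice, beside 10.5% of all genes. The summed hepatocyte markers spanned 10.12 to 10.42 in untreated and 10.33 to 10.53 in treated lean mice, and 9.96 to 10.19 and 9.91 to 10.34 in obese mice. The part of these in the values of the 10 genes was not tested.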

How the data were processed

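Total liver RNA of 18 mice was hybridised to one-colour Agilent arrays, 1 per mouse. The deposited intensity values are the authors' Agilent Feature Extraction (10.7.3.1) output, per the file headers, background-subtracted and detrended within the array but not scaled between arrays. The array design is laid out on mm9. The deposited series table equals the background-subtracted signal. Here levels are the log2 of the processed signal minus each array's 75th percentile, control and outlier spots were left out, and spots of 1 probe were averaged. Of 39429 probes, 28025 (71.1%) were named through their transcript accession, and the 35738 with 4 or more arrays well above background were fitted in limma (3.58.1, R 4.3.3), all groups together, p-values being adjusted by Benjamini-Hochberg over these probes, with calls at an adjusted p below 0.05. A gene was read on its brightest kept probe. The fit was tested on simulated data. The number of arrays limits the precision, and no spot was saturated.

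A probe below background on all arrays of a group gives a bound, the brighter group's mean over the lowest signal above background. Samples were grouped by their labels, and replicate numbers did not pair mice (correlations of same-numbered deviations -0.314 to 0.255). Alternatives were background modelling (normexp, offset 50, on the median spot signal because no mean signal is in the columns, with 73 spots of stray local background on 10 arrays given the array's median), quantile normalization, the series table, other filters, averaging the probes of a gene, blocking on slide or replicate number, other thresholds and leaving out each array. The genes and the lists were chosen with earlier results of these data known. Named list genes were the up to 6 largest called differences of each list, 8 genes of the pathway whatever their values, and all tested relatives; Hnf4a and C8b were named after their values were seen. Single values of 2 list genes are not reported here.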

Additional observations from a re-analysis of the deposited data

Results flagged for a closer look

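Single mice stood apart from their group, by the gap to the next mouse over the group's range (Dixon's test), in 8 groups of values. At most 188 groups, from 47 genes, were examined, since a group with a missing value was passed over. Chance marks about 1 in 20 groups. Ghr was 2.15 in LFD MTX50 mouse 5, beside 2.66 to 2.85 in the others. In HFD MTX50 mouse 2, Fmo2 was -0.25 (others -3.01 to -2.26) and Igfbp3 was -0.76 (others -2.59 to -2.19). Jak2 was 2.13 in HFD MTX50 mouse 1 (others 2.76 to 2.98) and Hsd3b1 was -5.96 in HFD MTX50 mouse 5 (others -5.58 to -5.52). Nat8f2 was 0.70 in LFD MTX50 mouse 5 (others 1.49 to 1.73), Cyp2b10 was -0.69 in LFD mouse 4 (others -0.27 to -0.22), and Trim24 was -0.12 in HFD mouse 2 (others -0.59 to -0.53).

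The methotrexate effect differed between diets for 15 named genes, by the test of the difference in limma (obese effect minus lean effect, Benjamini-Hochberg adjusted p). That test called 26.8% of all genes. Many of the named genes were picked for their large called differences, so the count of 15 is a description. Genes with a more negative effect in lean mice were Elovl3 (4.67, adjusted p = 0.00519), Cyp4a12a (2.40, 0.0103), Igfbp2 (2.38, 0.0116), Gstp1 (2.29, 0.00588), Cyp4a12b (2.26, 0.00586), Foxa1 (1.27, 0.0177), Nat8f6 (1.25, 0.0316), Stat5a (1.10, 0.0182), Nat8 (1.09, 0.00972) and Jak2 (1.08, 0.0161). Genes with a more positive effect in lean mice were Fmo2 (-2.68, adjusted p = 0.0242), Cyp2b9 (-2.46, 0.0492), Atp6v0d2 (-1.74, 0.0212), Htra1 (-1.16, 0.0460) and Trim24 (-0.96, 0.0334). Of these, the calls of Htra1, Cyp2b9, Trim24, Nat8f6 and Fmo2 were lost in 15, 13, 11, 9 and 2 of the 18 fits that left out 1 mouse, with adjusted p up to 0.1103, 0.118, 0.0667, 0.0604 and 0.0505. In the other settings, some of which ask for a 2-fold step, Cyp2b9 lost its call in 7 of 10. Htra1 and Trim24 lost theirs in 5 of 10, Nat8f6 in 4 of 9 and Atp6v0d2 in 2 of 10. Fmo2, Cyp4a12a, Foxa1, Stat5a, Jak2 and Nat8 each lost theirs in 1 of 10.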

How the results depend on the processing

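Counts of called genes are given in the order HFD vs LFD, then the obese and then the lean treatment comparison, then the difference between these, and were 8, 8, 12 and 13 for signalling genes, 6, 3, 11 and 6 for male-biased genes, 6, 1, 9 and 7 for female-biased genes, and 3, 2, 6 and 2 for transcription factors. With the slide as a random block (correlation 0.262) they were 2 (HFD vs LFD), 2 (LFD MTX50 vs LFD) and 4 (difference) for signalling, 0 and 6 (the 2 LFD comparisons) for male-biased, 0, 1 and 1 for female-biased, and 0, 1 and 0 for transcription factors. With the slide as a fixed block, HFD MTX50 vs HFD had 0 in all 4 lists. With the replicate number as a block, HFD MTX50 vs HFD had 5 signalling genes and 0 transcription factors, but the numbers do not pair the mice. Normexp gave 5 male-biased and 0 transcription factors in HFD MTX50 vs HFD and 4 female-biased for the difference, and turned Nat8f6 in HFD MTX50 vs HFD to 0.0092. Quantile normalization gave 1 transcription factor in HFD vs LFD, and 2 and 3 female-biased genes in HFD MTX50 vs HFD and the difference; it moved the all-gene median of LFD MTX50 vs LFD from 0.10 to -0.0023. The series table gave 0 female-biased genes and 0 transcription factors in HFD MTX50 vs HFD, no filter gave 1 transcription factor there, and the mean of probes 0 female-biased genes. With a 2-fold minimum, either with an adjusted p or with an unadjusted p up to 0.015, signalling had 1, 3, 4 and 7, female-biased 3 and 0 in HFD vs LFD and HFD MTX50 vs HFD, and transcription factors 0, 0, 2 and 1; the unadjusted p gave 5 male-biased genes in HFD MTX50 vs HFD. Leaving out 1 mouse gave, in the same order, 3 to 11, 2 to 10, 8 to 14 and 8 to 15 for signalling, 3 to 8, 0 to 5, 11 to 13 and 6 to 10 for male-biased, 1 to 7, 0 to 1, 7 to 11 and 3 to 9 for female-biased, and 0 to 4, 0 to 2, 3 to 7 and 1 to 3 for transcription factors. Among the 10 genes, the Cux2 and Nat8f5 differences in LFD MTX50 vs LFD were 3.28 and -4.68 under normexp, that of Hsd3b4 was -2.42 over the mean of its probes, and Hsd3b5 and Hsd3b4 in HFD MTX50 vs HFD ran from -1.78 to 0.32 and from -1.32 to 0.42 when 1 mouse was left out. The cause of these shifts was not tested.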

Other observations

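Of 14 core clock genes, 3 rose (Nr1d2, Tef and Ciart) and 2 fell (Clock and Cry1) in LFD MTX50 vs LFD, beside 17.6% and 10.5% of all genes, and in HFD vs LFD Dbp and Tef were higher and Arntl, Clock and Cry1 lower, beside 18% and 10.4%. In HFD MTX50 vs HFD limma called 0 of them, with 2 at an unadjusted p below 0.05. Of 10 fasting response genes, Pck1 rose and Pdk4 fell in LFD MTX50 vs LFD, beside 17.6% and 10.5% of all genes. Ppargc1a rose in HFD MTX50 vs HFD, beside 4.83% of all genes. The summed level of 7 Kupffer cell markers was 5.45 to 5.89 in LFD, 4.91 to 5.25 in LFD MTX50, 4.95 to 5.79 in HFD and 5.52 to 6.19 in HFD MTX50. Of 7 neutrophil markers, Ngp rose and Elane fell in LFD MTX50 vs LFD, beside 17.6% and 10.5% of all genes, with a list median of 1.09. Their summed level follows Elane, the brightest, and its values are not given. Of 5 adipocyte markers, Plin1, Lep and Cfd were higher in HFD vs LFD, beside 18% of all genes. In LFD MTX50 vs LFD Adipoq, Plin1 and Lep rose and 0 fell, beside 17.6% and 10.5%. In HFD MTX50 vs HFD Cfd fell by 5.32 and Adipoq rose by 0.88, beside 6.13% and 4.83%.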
